A study of Danio rerio with 8 samples.

Results

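The Fos and Jun genes encode the subunits of the transcription factor AP-1. The 5 genes described here, fosab, fosb, fosl1a, junba and junbb, are those that the deposited zebrafish table lists under these symbols, 5 of 1293 listed genes. RNA came from whole Danio rerio embryos at 53 hours post fertilisation. The tested embryos were iqgap1-/- and hemorrhage-positive (4 pools), and the comparison embryos were wild-type (4 pools), with 20 embryos per pool in the design text. The labels' extraction protocol instead speaks of single larvae, and the difference was not resolved here. The mutant allele, and whether the wild-type embryos were siblings of the mutants, are not given in these sources. Mutant pools were chosen for hemorrhage, so genotype and bleeding cannot be told apart. Nothing in the labels says that the pools came from separate clutches, so p-values measure the spread between these pools.

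Fos and Jun proteins are basic leucine zipper (bZIP) factors that bind DNA as pairs. Fos proteins need a Jun partner, whereas Jun proteins can also pair with each other. Most of these genes are immediate early genes, which cells transcribe within minutes of growth factors, stress or wounding without first making new protein, and their transcripts are short-lived. In zebrafish, junba and junbb are known to be induced in injured and regenerating fins, and in mice Junb and Fosl1 are needed for vessels of the extraembryonic tissues.

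The table is a selected one. The authors' deposited table gives adjusted p-values up to 0.04997 and log2 fold changes no smaller in size than 0.5856, so each member had been picked for the contrast that is tested below. All 1126 genes that passed the count filter here had an unadjusted p under 0.05. The summed expected counts of all listed genes lay between 394025 and 552331 in the mutant pools and between 354272 and 453514 in the wild-type pools, a sum that leaves out most of each library. The iqgap1 transcript itself had 902 to 1245 normalized counts in the mutant pools, against 2115 to 2212 in the wild-type pools. Counts were normalized on the between-group scale of the authors' fold changes. Relative to it, scaling over the listed genes alone shifts the log2 scale between the groups by -0.515 (median of ratios, RLE) or -0.385 (trimmed mean of M values, TMM), and fitted fold changes of single genes move by about as much. The calls therefore split into 422 higher and 330 lower genes on the authors' scale, 113 and 465 with RLE, and 162 and 451 with TMM.

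All 5 Fos and Jun genes had higher counts in every iqgap1-/- pool than in any wild-type pool. Of the 5, 4 passed an adjusted p of 0.05: fosab rose 5.31-fold, fosb 2.58-fold, junbb 2.26-fold and fosl1a 2.22-fold, while junba (1.83-fold) did not pass the test. In the table as a whole, 51.4% of the 1293 genes had all mutant pools above all wild-type pools and 38.1% had them all below. Of the 1126 tested genes 66.8% were called, 37.5% higher and 29.3% lower. The median log2 fold change of the members was 1.18, against 0.70 over all tested genes. These backgrounds come from genes selected for this contrast. The listed genes were 761 higher in mutants and 532 lower, so the median of 0.70 mixes both directions. Counted from the highest of the authors' log2 fold changes, fosab ranked 80, fosb 288, junbb 361, fosl1a 376 and junba 553. In whole-embryo RNA, more cells expressing a gene and more RNA per cell cannot be told apart.

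The Fos member with the largest difference was fosab (ENSDARG00000031683), a counterpart of mammalian c-Fos. It had 441, 305, 359 and 194 normalized counts in iqgap1-/- pools 1 to 4, against 41.0, 39.9, 66.2 and 96.8 in wild-type pools 1 to 4. The lowest mutant pool, pool 4, thus lay above the highest wild-type pool, also pool 4, and both groups were wide. The mean was 325 ± 104 in mutants and 61.0 ± 26.8 in wild type (SD, n = 4 each). The fitted log2 difference was 2.41 ± 0.31 (SE; adjusted p = 0.00175 by the edgeR quasi-likelihood test). The spread between pools was 31.9% of the mean in mutants and 44.0% in wild type, where counting error alone gives 5.75% and 12.2%. Of the 1126 tested genes, 122 had a larger estimated biological variation. The expected count of fosab was not a whole number in 6 of 8 libraries, as RSEM writes where reads are divided between features, so part of its count is an estimate.

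The second Fos member, fosb (ENSDARG00000055751), encodes the counterpart of mammalian FosB. Its mutant pools 1 to 4 had 73.2, 73.9, 56.3 and 85.8 normalized counts, against 32.6, 30.9, 22.9 and 25.8 in wild-type pools. The groups stood well apart, and mutant pool 4, the lowest for fosab, was the highest for fosb. It rose by 1.37 ± 0.20 on the log2 scale (SE; edgeR, adjusted p = 0.00317). Here the spread was 16.8% of the mean in mutants and 16.0% in wild type, close to the 12.1% and 18.2% of counting error.

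The Fos-related antigen gene fosl1a (ENSDARG00000015355) encodes a counterpart of FRA1, a Fos protein without the strong activation domain of c-Fos. It had 70.3, 98.9, 129 and 91.1 normalized counts in mutant pools 1 to 4, against 36.3, 52.9, 42.4 and 43.3 in wild-type pools. Pool 1 was the lowest in both groups, and the groups did not overlap. It rose by 1.15 ± 0.21 on the log2 scale (SE; edgeR, adjusted p = 0.0115).

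The zebrafish JunB genes are the Jun members of the table. The more abundantly counted one, junbb (ENSDARG00000104773), had 716, 551, 611 and 404 normalized counts in mutant pools 1 to 4, against 240, 207, 269 and 291 in wild-type pools. The order of the mutant pools was that of fosab, with pool 1 highest and pool 4 lowest. It rose by 1.18 ± 0.18 on the log2 scale (SE; edgeR, adjusted p = 0.00424).

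The other JunB gene, junba (ENSDARG00000074378), had 264, 176, 174 and 178 normalized counts in mutant pools, against 157, 80.8, 92.5 and 103 in wild-type pools. Pool 1 was the highest in both groups, and the gap between the lowest mutant and the highest wild-type pool was small. The log2 difference was 0.87 ± 0.22 (SE; edgeR, adjusted p = 0.074). Without wild-type pool 1 it was 1.1 and passed (edgeR, adjusted p = 0.0148), and DESeq2 called it with all pools (adjusted p = 0.0185). The authors' deposited table gives junba a log2 fold change of 0.87 with an adjusted p of 0.0058. The counts of fosb, fosl1a, junba and junbb were whole in 8 of 8 libraries.

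**Figure D1:**
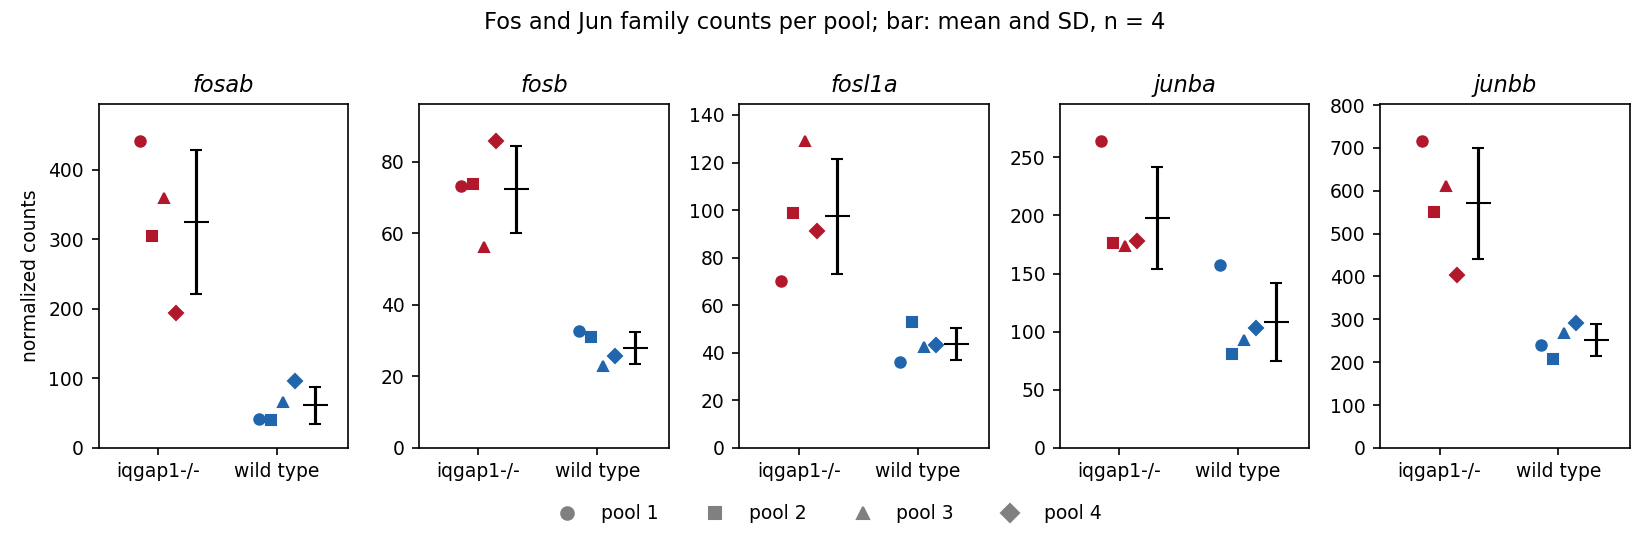
Normalized counts (y axis, linear, separate scale for each gene) of the 5 Fos and Jun genes in iqgap1-/- pools (red) and wild-type pools (blue). Symbols mark pool numbers, and the black bars give the mean and SD of 4 pools. All 4 mutant pools lie above all 4 wild-type pools for each gene, with the narrowest gap for junba (174 against 157).

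The size of these differences depends on the scale between the groups, because each scaling over the listed genes shifts all genes by about the same amount. RLE and TMM take most genes as unchanged. Every listed gene had been selected for a difference, so these 2 scalings have no unchanged majority to rest on. Which scale is nearer to the true one was not tested. The fosab call stood with TMM (log2 fold change 2.04, adjusted p = 0.00418) and with RLE (1.90, adjusted p = 0.00683), both in edgeR. The fosb call stood with TMM (0.99, edgeR, adjusted p = 0.0261) and was lost with RLE (0.86, adjusted p = 0.0584). The calls of junbb (0.80 with TMM and 0.67 with RLE) and fosl1a (0.75 and 0.62) were lost under both. The direction stayed higher in mutants for all 5 genes under both scalings. With RLE 1 of 5 members was called higher, where 10.1% of all tested genes were, and with TMM 2 of 5, where 14.5% were. On the authors' scale DESeq2 called 5 of 5 higher, where 44.4% of all tested genes were, and edgeR with a replicate block 5 of 5, where 27.7% were.

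**Figure D2:**
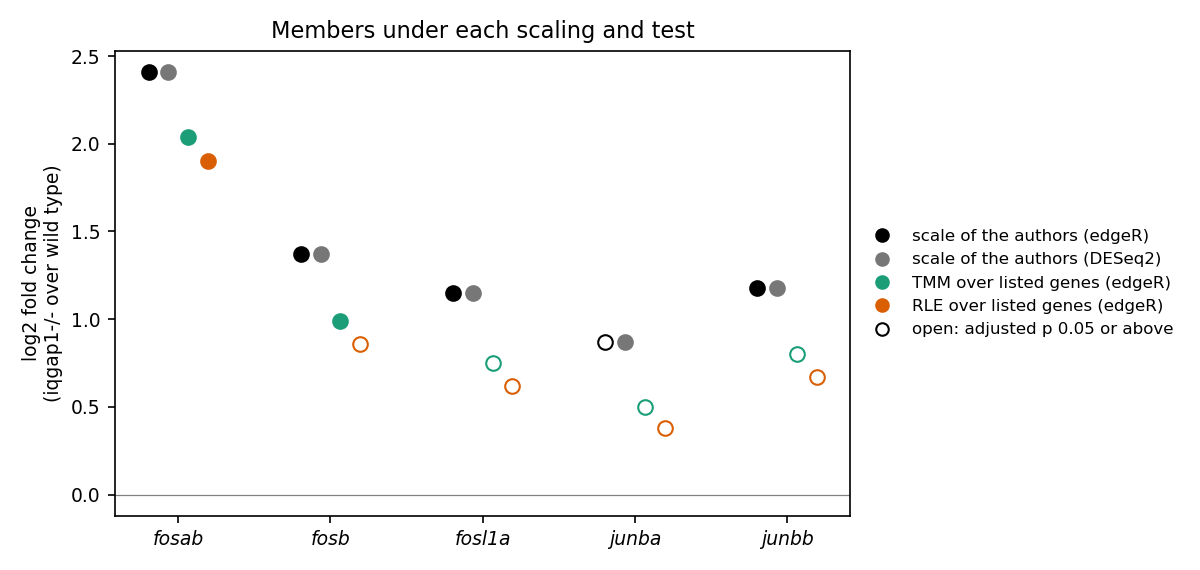
Log2 fold change of each member, iqgap1-/- over wild type (y axis), on the authors' scale with edgeR (black) and DESeq2 (grey) and with scaling over the listed genes by TMM (green) or RLE (orange). Filled points passed an adjusted p of 0.05. The fosab points run from 2.41 down to 1.90 and are filled throughout, while those of junba run from 0.87 to 0.38.

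A ratio of 2 genes within a pool does not depend on any scaling, so the 10 pairs of members were compared as log2 ratios of expected counts (pseudocount 1). The ratio of fosab to junbb was -0.69, -0.85, -0.77 and -1.06 in mutant pools 1 to 4, against -2.52, -2.35, -2.0 and -1.58 in wild-type pools. All mutant ratios were higher, and their spread was small (SD 0.16 in mutants and 0.42 in wild type, n = 4 each). The difference was 1.27 on the log2 scale, with p = 0.0286 in a two-sided exact permutation test, the smallest value that 4 pools against 4 can give, and 0.143 after Benjamini-Hochberg adjustment over the 10 pairs.

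The ratio of fosab to junba was 0.74, 0.79, 1.04 and 0.12 in mutant pools, against -1.92, -1.0, -0.47 and -0.09 in wild-type pools. The groups again did not overlap, with a difference of 1.54 (exact permutation test, p = 0.0286, adjusted p = 0.143). Against the other Fos genes the groups overlapped: the difference was 1.09 for fosab over fosb (exact permutation p = 0.114, adjusted p = 0.286) and 1.31 for fosab over fosl1a (exact permutation p = 0.0571, adjusted p = 0.19). The 6 pairs without fosab had differences from -0.27 to 0.45 and overlapped in every case (exact permutation p from 0.143 to 0.886), which does not show that these genes moved alike. None of the 10 pairs passed the adjusted threshold, and 2 had an unadjusted p under 0.05. A change in fosab alone could not have passed. Even with the smallest possible p of 0.0286 in all 4 pairs that hold fosab, the adjusted p would stay above 0.05.

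**Figure D3:**
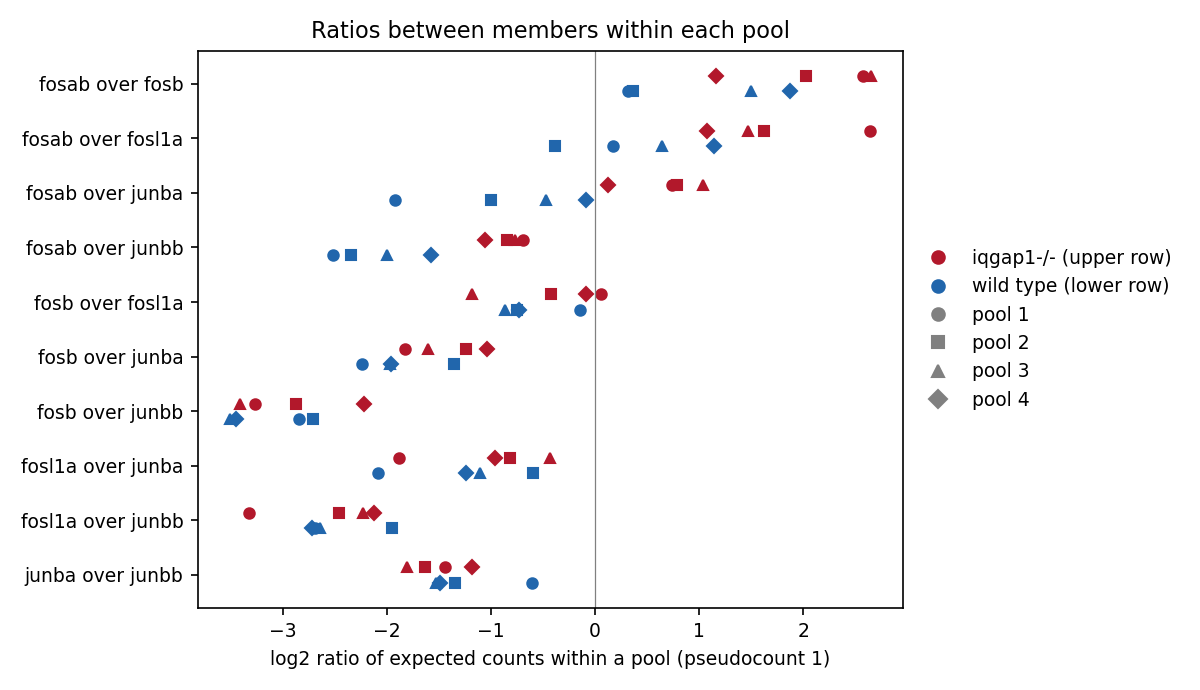
Log2 ratio of expected counts of each pair of members within a pool (x axis). For each pair the upper row (red) shows the iqgap1-/- pools and the lower row (blue) the wild-type pools, with symbols for pool numbers. Only fosab over junba and fosab over junbb have separate groups.

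Among the counts of the 5 members together, the Fos genes made up 39.2% ± 1.48 in mutant pools and 27.0% ± 3.86 in wild-type pools (SD, n = 4 each). The mutant pools ranged from 37.4% to 40.9% and the wild-type pools from 21.7% to 30.0%. Of this, fosab alone was 25.2% ± 3.47 in mutants and 12.1% ± 4.1 in wild type. Counts are not per transcript length, so the shares compare pools and not the abundance of one gene with another.

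Within a group the members did not vary as one block. On the log2 scale, mutant pool 1 lay above its group mean for fosab (0.50), junba (0.44) and junbb (0.36) and below it for fosl1a (-0.43). Mutant pool 4 lay below the mean for fosab (-0.68) and junbb (-0.47) and above it for fosb (0.26). In wild type, fosab lay below its mean in pools 1 and 2 (-0.47 and -0.50) and above it in pools 3 and 4 (0.21 and 0.75), and junbb had the same signs (-0.06 and -0.27, then 0.11 and 0.22). The sign of the deviation was thus the same for fosab and junbb in all 8 pools, though in mutant pool 2 both lay close to the mean (-0.03 and -0.02). Deviations cancel out within a group, so the 8 signs are not independent. The pair was singled out among 10, and its likeness was not tested.

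**Figure D4:**
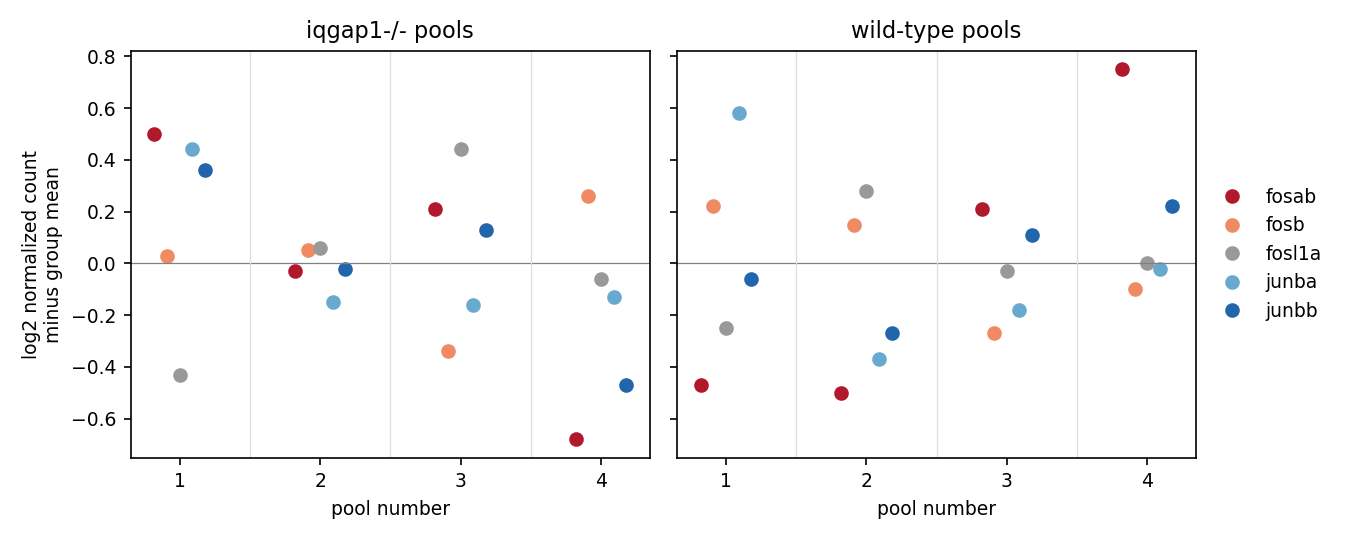
Log2 normalized count of each member minus its group mean (y axis) in iqgap1-/- pools (left) and wild-type pools (right), by pool number (x axis). fosab and junbb lie on the same side of 0 in each of the 8 pools, and fosl1a lies opposite to them in mutant pool 1.

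Profiles over the 8 pools, centred on each gene's mean on the log2 scale, were also compared with 563 other named genes of the table whose mean count was 20 or higher. The measure was the mean absolute difference between 2 profiles. It takes in the difference between the groups as well as that between pools of a group. Genes that lie near each other therefore need not vary alike within a group. Nearest to junbb were f2rl1.2 (0.06), a protease-activated receptor gene, the immediate early gene ier2a (0.10) and tcima (0.11). For f2rl1.2 the counts were 275, 255, 272 and 189 in mutant pools, against 102, 87.8, 115 and 124 in wild-type pools, which is the pool order of junbb in both groups. Nearest to fosl1a were fech (0.08), the enzyme that inserts iron into heme, the cytoskeletal adaptor gene swap70a (0.14) and the mitochondrial iron carrier gene slc25a37 (0.15).

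Nearest to fosb were osgepl1 (0.12), which acts in transfer RNA modification, the bile salt transporter gene abcb11b (0.14) and cyp8b1 (0.15), a sterol hydroxylase of bile acid synthesis. Those of junba were cpeb1a (0.16), which encodes an RNA-binding protein, cyr61l1 (0.17), a matricellular protein gene, and the carboxypeptidase gene cpa5 (0.17). For fosab, the member with the largest fold change, no gene lay as near. Its nearest were sdr42e2 (0.31), a short-chain dehydrogenase gene, the finTRIM gene ftr02 (0.37) and the forkhead factor foxq1a (0.38). Among the members themselves junba and junbb were the closest pair (0.25) and fosab and junba the farthest (0.77).

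For the counts of rows of the gene lists below, the table lists 1293 of the 26889 genes that the authors adjusted over. Whether a list had more or fewer rows than that share was not tested. Of 8 symbols for other Fos and Jun genes (among them jun, jund, fosaa and fosl2) none had a row, and they were not analysed here. Of 34 symbols for other bZIP factors 3 had a row. The small Maf gene mafk, whose protein lacks an activation domain and pairs with other bZIP factors, had 35.1, 60.4, 56.3 and 64.6 normalized counts in mutant pools, against 20.5, 32.9, 22.1 and 27.7 in wild-type pools. It was called higher (log2 fold change 1.07 ± 0.25, SE; edgeR, adjusted p = 0.047), and the call was lost when any of 6 pools was left out (adjusted p up to 0.171), with TMM (0.464) and with RLE (1).

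The genes crema and cremb encode cAMP-responsive bZIP factors. The counts of crema were 265, 839, 1009 and 754 in mutant pools, against 298, 409, 262 and 325 in wild-type pools, with mutant pool 1 among the wild-type values. It did not pass (1.15 ± 0.33, edgeR, adjusted p = 0.142), and without mutant pool 1 it did (1.42, adjusted p = 0.000968), as it did by DESeq2 with all pools (1.15, adjusted p = 0.02). The low-count cremb fell to 5.86, 3.12, 7.67 and 6.36 in mutant pools, against 22.3, 26.9, 13.6 and 20.3 in wild-type pools (-1.84 ± 0.33, SE; edgeR, adjusted p = 0.011). A replicate block ended the calls of cremb (adjusted p = 0.0698) and mafk (0.0538).

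Of 73 symbols for the MAP kinase and serum response factor pathway, through which signals reach the Fos and Jun genes, 2 had a row. Neither passed with edgeR or with DESeq2, and both had an unadjusted p under 0.05, like all tested genes. The ribosomal S6 kinase gene rps6ka2 had a log2 fold change of 0.71 (edgeR, adjusted p = 0.0593). The phosphatase gene dusp2, whose product inactivates MAP kinases, had 0.62 (adjusted p = 0.104). Both had all mutant pools above all wild-type pools, where 51.4% of the listed genes did.

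AP-1 binding is known to drive genes of matrix breakdown, prostaglandin synthesis and wound repair. Of 79 such symbols 8 had a row, of which 3 were called higher and 1 lower, against 37.5% higher and 29.3% lower among all tested genes. The median log2 fold change of the 8 was 0.73, against 0.70 over all tested genes, so neither measure set the list apart from the table. The inducible cyclooxygenase gene ptgs2b had 205, 222, 170 and 185 normalized counts in mutant pools, against 57.7, 31.9, 30.5 and 50.7 in wild-type pools (log2 fold change 2.19 ± 0.21, SE; edgeR, adjusted p = 0.000296). Unlike fosab, its mutant pools were even, and its call stood with TMM (1.82) and RLE (1.69). The matrix metalloproteinase gene mmp9 had 342, 284, 391 and 221 counts in mutant pools, against 127, 128, 130 and 147 in wild-type pools (1.22 ± 0.17; edgeR, adjusted p = 0.00248), with mutant pool 4 the lowest. Its relative mmp30 rose less (0.65 ± 0.12; edgeR, adjusted p = 0.0116), a call that a replicate block ended (adjusted p = 0.0798). With RLE the calls of mmp9 (adjusted p = 0.111) and mmp30 (1) were lost and lower calls of plaub (0.0321) and serpine3 (0.00552) were gained. With RLE 1 of the 8 was thus called higher and 3 lower, where 10.1% of all tested genes were called higher and 41.6% lower.

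The annexin gene anxa1a, whose product dampens inflammation in mammals, fell to 1284, 1297, 1209 and 1253 normalized counts in mutant pools, against 2307, 2007, 1848 and 1986 in wild-type pools (-0.69 ± 0.11, SE; edgeR, adjusted p = 0.00446). The plasminogen activator gene plaub (-0.89) and serpine3 (-1.04), a serine protease inhibitor family gene, were lower without passing on the authors' scale (edgeR, adjusted p = 0.266 and 0.0654). For serpine3 DESeq2 gave a call (adjusted p = 0.0264), as did edgeR with TMM (0.0123). The metalloproteinase inhibitor gene timp4.1 (0.81, adjusted p = 0.18) and the annexin partner gene s100a10a (0.92, adjusted p = 0.0904) were higher without passing in edgeR, and DESeq2 called s100a10a (adjusted p = 0.0379). In timp4.1, mutant pool 1 had 97.6 counts against 208 to 227 in the other mutant pools, and without that pool its log2 fold change was 1.03 (edgeR, adjusted p = 0.00227).

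Of 85 symbols for immediate early genes other than Fos and Jun, 16 had a row and 15 were tested. All 15 had a positive log2 fold change. Of the 16 rows, 15 were higher in mutants by the authors' fold changes and 1, the untested klf10, was lower. Among all 1293 listed genes 761 were higher in mutants. The median of the 15 was 0.95, against 0.70 over all tested genes, a median that mixes both directions. Of the 15, 10 were called higher. Among all tested genes 37.5% were called higher and 66.8% in either direction. The 37.5% counts genes that were lower among those not called, and 10 of 15 is near the 66.8%. The neuronal activity factor npas4a had the largest (2.1 ± 0.37, SE; edgeR, adjusted p = 0.0102) at low counts, 22.5, 34.3, 28.1 and 15.9 in mutant pools against 2.79, 8.98, 4.24 and 7.37 in wild-type pools. The nuclear protein gene csrnp1a rose by 1.2 ± 0.15 (edgeR, adjusted p = 0.0016), the growth arrest gene gadd45ba by 1.15 ± 0.15 (adjusted p = 0.00184), ier2b by 1.14 and ier2a by 1.08. In ier2a the counts were 466, 385, 367 and 324 in mutant pools, against 161, 157, 199 and 213 in wild-type pools, with pool 1 highest in mutants as for fosab and junbb. The zinc finger factor klf4 rose by 0.96, cebpb by 0.95 (a call that a replicate block ended, adjusted p = 0.0582), trib1 by 0.67, egr1 by 0.66 and nr4a1 by 0.61. The counts of egr1 were 547, 451, 537 and 469 in mutant pools, against 323, 272, 329 and 347 in wild-type pools. The zinc finger egr1 and the nuclear receptor nr4a1, textbook companions of Fos in the immediate early response, had lower fitted log2 fold changes than each of the 5 members, a difference that was not tested.

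The remaining 5 tested genes of that list, cyr61, cyr61l1, cebpd, socs3a and dusp2, did not pass (edgeR). Of these, socs3a (log2 fold change 1.17, adjusted p = 0.0728), an inhibitor of cytokine signalling, and the matricellular gene cyr61 (0.68, adjusted p = 0.151) had overlapping groups, with mutant pool 4 inside the wild-type range. The counts of socs3a were 153, 127, 146 and 58.3 in mutant pools, against 62.4, 35.9, 49.2 and 66.4 in wild-type pools. The untested gene, klf10, had 0 to 3.18 normalized counts in mutant pools and 3.39 to 13.0 in wild-type pools, and the authors' deposited table gives it a log2 fold change of -2.42. With RLE 1 of the 15 was called, csrnp1a (0.68, edgeR, adjusted p = 0.0407), where 10.1% of all tested genes were called higher, and with TMM 3 were, where 14.5% of all tested genes were.

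**Figure D5:**
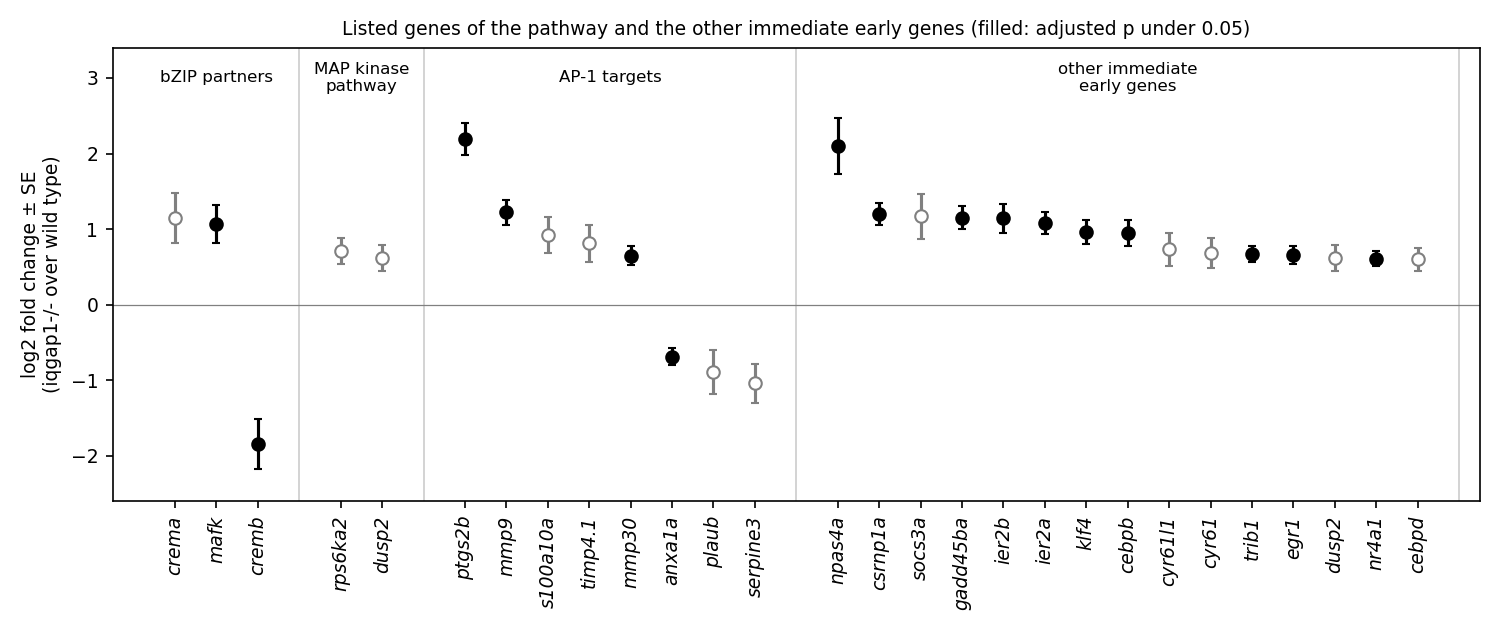
Log2 fold change, iqgap1-/- over wild type, with its SE (y axis) for tested genes of 4 lists. These are other bZIP factors (labelled bZIP partners), the MAP kinase pathway, AP-1 target genes and other immediate early genes. Filled points passed an adjusted p of 0.05. All 15 tested immediate early genes lie above 0, and 3 of 8 target genes lie below it. Of the 1293 listed genes 761 were higher in mutants and 532 lower. The untested immediate early gene klf10, which was lower, is not shown.

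The pools in which fosab and junbb were highest and lowest were often also those of the other immediate early genes. Mutant pool 1 was the highest mutant pool for 10 of the 15 (66.7%) and mutant pool 4 the lowest for 10 of the 15. Among 955 genes of the table with a mean count of at least 20, mutant pool 1 was highest for 31.0% and mutant pool 4 lowest for 23.6%. Mutant pool 1 was also lowest for 36.2% of these genes. Of the 5 members, it was the highest mutant pool for 3 and the lowest for 1. The order was not particular to immediate early genes. Mutant pool 1 was also highest for the neutrophil marker mpx and the macrophage marker apoeb, though not for mmp9 or marco. In wild type, pool 4 was the highest for 9 of the 15 (60.0%), against 22.4% of the 955 genes. Genes of the same pool share its RNA and are not replicates, and the difference between these shares was not tested. Without mutant pool 1, 10 immediate early genes and 4 members were called higher, the same numbers as with all pools. Higher calls over the whole table rose from 422 to 478.

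Markers of other cells also moved with the groups. Neutrophils express many immediate early genes, and 8 of 28 neutrophil symbols had a row. All 8 were called higher, with the myeloperoxidase gene mpx (1.15) and cpa5 (1.2) among them. Not all 8 are particular to neutrophils. Of all tested genes 37.5% were called higher and 66.8% in either direction. The summed level of the 8 was 8736 to 10103 normalized counts in mutant pools and 4537 to 5092 in wild-type pools. Their median log2 fold change was 0.95, against 0.70 over all tested genes, a median that mixes genes of both directions. With RLE none of the 8 was called by edgeR (10.1% of all tested genes were called higher), although 6 had an unadjusted p under 0.05. With TMM 4 were called, against 14.5% of all tested genes, and DESeq2 called all 8 on the authors' scale. Of 40 macrophage and microglia symbols 13 had a row, 2 called higher and 8 lower (median log2 fold change -0.91), against 37.5% higher and 29.3% lower among all tested genes. The lower calls numbered 4 without wild-type pool 1 or without mutant pool 2, 3 or 4, 5 without wild-type pool 3 or 4, 6 without wild-type pool 2, 9 without mutant pool 1 and 5 with a replicate block. Over the whole table the lower calls numbered 330 with all pools, 233 to 321 with 1 pool left out and 230 with a replicate block. With RLE 11 of the 13 were called lower and 1 higher, against 41.6% and 10.1% of all tested genes. TMM also called 11 lower and 1 higher, where 451 genes of the table were called lower and 162 higher. The 13 had a summed level of 14151 to 19869 in mutant pools and 22120 to 28840 in wild-type pools. Most of that sum was 1 gene, apoeb (log2 fold change -0.68). It had 12995 to 18517 normalized counts in mutant pools and 20276 to 27103 in wild-type pools. Among the 13, lgals3bpb (-2.31), the scavenger receptor gene marco (-1.80) and grna (-1.21) were lower and the integrin gene itgam (1.71) higher. No listed marker of either cell type was at 0 in any pool. mmp9 and cebpb also stand on the neutrophil list.

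Of 46 keratinocyte and periderm symbols 1 had a row, the transglutaminase-like gene tgm1l4 (2.43 ± 0.24, SE; edgeR, adjusted p = 0.000335). None of 30 endothelial symbols and none of 36 heat shock and handling stress symbols had a row, and those genes were not analysed here. The part of these marker differences in the Fos and Jun results was not tested.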

How the data were processed

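The single deposited table gives, per the file headers, for each gene the authors' log2 fold change, the same as a linear ratio, its p-value, raw and adjusted, and 1 value per library. Per the submitters' processing notes, tools were STAR 2.7, RSEM and Trimmomatic, with build danRer11. The deposited values are RSEM expected counts, each multiplied by 1 of 8 factors (0.9784 to 1.0252) that run cyclically over cells and belong to no library. Dividing them out returned multiples of 0.01 for all 10152 nonzero values. These expected counts were rounded for tests.

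Size factors were set within groups by the median of ratios (genes with a mean of 50 or more). The log2 ratio of mutant to wild-type size factors (-0.231) was chosen so that fitted and deposited log2 fold changes match in the median. edgeR 4.0.16 (R 4.3.3; filterByExpr, minimum count 10, minimum total 15; glmQLFit, glmQLFTest) tested 1126 genes and left out 167. P-values were adjusted over the 26889 genes that the authors adjusted over, and called under 0.05. Each edgeR SE is the size of the log2 fold change divided by the square root of the quasi-likelihood F statistic. Scripts were tested on simulated data. Alternatives were DESeq2 1.42.0, RLE, TMM, no filter, a replicate block, each pool left out, an adjusted p under 0.01, deposited values with the factors left in, and a pseudocount of 0.5 for the ratios.

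The members, gene lists and tests were chosen with earlier results of these data known. Named were the members, all listed genes of the pathway lists, up to 10 called immediate early genes, up to 4 called genes of each marker list and the 3 nearest profiles of each member. The genes cyr61, cebpd, socs3a, klf10 and apoeb were named beside this rule. Sequences were not used here. Depth of the libraries is not known, and SDs and SEs carry the precision.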

Additional observations from a re-analysis of the deposited data

Results flagged for a closer look

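In 118 groups of 4 pools (named genes and member ratios), Dixon's test set the highest or lowest pool apart in 6, where chance gives about 5.9. One was a member: junba had 264 normalized counts in mutant pool 1, against 174 to 178 in the other mutant pools. The log2 ratio of fosl1a to junbb was -1.95 in wild-type pool 2, against -2.72 to -2.64 in the other wild-type pools. In mutants, timp4.1 had 97.6 counts in pool 1 (others 208 to 227) and ftr02 had 46.8 in pool 2 (others 37.1 to 38.1). Wild-type pool 4 was the highest wild-type pool for mmp9 (147, others 127 to 130) and cebpb (643, others 434 to 464).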

How the results depend on the processing

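On the authors' scale, fosab, fosb, fosl1a and junbb kept their direction and call with DESeq2, no count filter, the factors left in, a replicate block and each pool left out. Scaling over the listed genes ended the calls of fosb (RLE 0.86), fosl1a (TMM 0.75, RLE 0.62) and junbb (TMM 0.80, RLE 0.67). The call of junba was gained with a replicate block (0.89, adjusted p = 0.0163), DESeq2 (0.87) and without wild-type pool 1 (1.1). With each pool left out, log2 fold changes ranged from 2.22 to 2.72 for fosab, 1.28 to 1.47 for fosb, 0.99 to 1.28 for fosl1a, 0.70 to 1.1 for junba and 1.05 to 1.31 for junbb.

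The deviations of same-numbered pools had correlations of 0.01, 0.112, -0.239 and -0.112 for numbers 1 to 4. Differently numbered pools had -0.362 to 0.301, so no pairing stood out, and whether the numbers pair pools was not tested. The block changed the genes called to 542, in place of 752. An adjusted p under 0.01 gave 433 (248 higher, 185 lower), RLE 113 higher and TMM 162 higher. With each pool left out the calls ranged from 538 to 799 (305 to 478 higher, 233 to 321 lower). No member ratio passed in any setting. With all pools, a change in fosab alone could not pass the adjusted threshold. With 1 pool left out, or with sign flips of same-numbered differences in place of a replicate block, none can, so those settings say nothing of stability. Of 44 other named genes tested, not all were called in the main fit. Of those called, 20 lost their call with RLE, 13 with TMM, 6 with a replicate block and up to 4 with 1 pool left out. None of the 44 changed direction under any setting.

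Among the 5 members, counting error was largest for fosb and fosl1a, and genes without a row were not analysed here.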
